A study of Homo sapiens with 3 samples.

Results

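The miR-23, miR-27 and miR-24 clusters are represented on the array by 5 mature miRNAs, hsa-miR-23a, hsa-miR-27a, hsa-miR-23b, hsa-miR-27b and hsa-miR-24. They were taken by exact name from the 851 human miRNA names on each array, whatever their values. The miRNAs held by Argonaute2 (Ago2), the slicer protein of the RNA-induced silencing complex, were pulled down with an antibody from Hep G2, a human liver cancer cell line. Cells had received 5 nM of a mimic, miR-195 or miR-497, with a lipid reagent 24 hours earlier, or neither mimic, and the last group is called NT (non-treated). The immunoprecipitation compared the mimics with non-transfected cells and not with a control mimic, so mimic and transfection cannot be told apart. Each group held 1 single-colour array as analysed here, which gives no replicate check, no test between groups and no p-value.

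The members come from a pair of paralogous clusters, each of which is transcribed as 1 long precursor and cut into hairpins. One cluster encodes miR-23a, miR-27a and a copy of miR-24, and the other encodes miR-23b, miR-27b and a further copy of miR-24. miR-23a and miR-23b are known for repressing glutaminase, miR-27 for repressing regulators of lipid metabolism and fat cell formation such as PPARG, and miR-24 for repressing cell cycle genes such as E2F2. In fetal liver the miR-23b cluster is known for repressing SMAD genes of the TGF-beta pathway.

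The mature sequences show what the array could and could not separate, and are given as RNA from 5′ to 3′ with the seed, bases 2 to 8, in capitals. They are from RefSeq on GRCh38.p14. The array names carry no arm, and each unstarred name was matched to the 3p arm.

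hsa-miR-23a: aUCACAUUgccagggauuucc
hsa-miR-23b: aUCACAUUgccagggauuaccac
hsa-miR-27a: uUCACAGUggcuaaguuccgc
hsa-miR-27b: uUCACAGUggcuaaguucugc
hsa-miR-24: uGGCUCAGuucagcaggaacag

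Counted from the 5′ end, miR-23a and miR-23b matched at 20 of 21 bases, with the substitution U19A from miR-23a to miR-23b, and miR-23b was 2 bases longer. miR-27a and miR-27b matched at 20 of 21 bases, with the substitution C19U. Both members of a pair therefore have the same seed and differ only towards the 3′ end. Probe sequences were not in the files, and cross-hybridisation between paralogues cannot be told apart from their own signal.

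In RefSeq the hairpins of MIR23A, MIR27A and MIR24-2 lie within 373 bases of chromosome 19 on the minus strand, inside the long noncoding gene MIR23AHG. The mature miR-23a is at chr19:13836595-13836615 and the mature miR-27a at chr19:13836447-13836467. The hairpins of MIR23B, MIR27B and MIR24-1 lie within 881 bases of chromosome 9 on the plus strand, inside the span of AOPEP, an aminopeptidase gene. The mature miR-23b is at chr9:95085265-95085287 and the mature miR-27b at chr9:95085505-95085525. The mature miR-24 is identical from chr19:13836289-13836310 and chr9:95086064-95086085, so its signal could be from either cluster. These are GRCh38.p14 positions, while the array headers name hg19.

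The members were read by 2 probes each, with 8 spots a probe, and 68 to 75 of the 80 member spots were used on an array after outlier spots were left out. A signal is the background-subtracted intensity averaged over the spots of a probe and summed over the probes of a miRNA. The value beside it, spot SD, is the spread between single spots of 1 array, not divided by their number. It is wider than the technical error of an averaged signal, so a difference within the spot SD can exceed that error. The spot SD covers technical error within an array and nothing of the variation between cultures or immunoprecipitations. Over the members the spot SD was 2.46 to 9.63% of the signal on the NT array, 1.24 to 6.02% on the miR-195 array and 5.41 to 12.6% on the miR-497 array.

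The labels were checked on the transfected miRNAs, and hsa-miR-195 read 38522 units after its own transfection, 45.3 on the NT array and 32.8 after transfection of miR-497. The signal of hsa-miR-497 was not well above background on the NT array and read 45.4 and 7903 units on the miR-195 and miR-497 arrays. Of the 3 liver markers, miR-192 and miR-194 were well above background on all arrays, and miR-122, which marks hepatocytes, was not on any. Of 14 markers of other cell types, 3, 2 and 2 were well above background on the NT, miR-195 and miR-497 arrays. Of the 5 blood cell markers, hsa-miR-142-3p (1521, 1244 and 397 units) and hsa-miR-142-5p (191, 182 and 57.1 units) were measured on all arrays, while hsa-miR-223, hsa-miR-150 and hsa-miR-451 were not well above background on any. The third marker on the NT array was the fibroblast miRNA hsa-miR-199a-3p. Their part in the members' signals was not tested. The miR-497 array was dim as a whole, with 121 human miRNAs well above background against 168 and 153 on the NT and miR-195 arrays. Its 75th percentile was 263 units, compared with 827 and 778. Below, values with miR-195 or with miR-497 are from the array of cells given that mimic. Signals are before scaling, and each scaled difference is after division by this percentile.

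All 5 members were well above background with both probes on all 3 arrays. On the chromosome 19 side, hsa-miR-23a read 758 units (spot SD 45.6) on the NT array, 660 (12.04) with miR-195 and 226 (25.7) with miR-497. hsa-miR-27a read 1008 units (spot SD 97.0), 751 (27.8) and 291 (36.5) in the same order. Both were lower on the miR-195 array than on the NT array by more than 1 spot SD, and lowest on the dim miR-497 array.

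On the chromosome 9 side, hsa-miR-23b read 1639 units (spot SD 40.3) on the NT array, 1637 (20.4) with miR-195 and 522 (28.3) with miR-497. hsa-miR-27b read 2024 units (spot SD 131), 1687 (102) and 586 (31.7). hsa-miR-23b stood at the same signal on the NT and miR-195 arrays within its spot SD, while hsa-miR-27b was lower on the miR-195 array. hsa-miR-24, the product of both clusters, read 1541 units (spot SD 50.1), 1171 (38.5) and 380 (35.2). Before scaling, its spots on the NT array did not overlap those on the miR-195 array for either probe. They ran from 884 to 979 against 674 to 755 for the brighter probe and from 569 to 673 against 425 to 490 for the dimmer one. The dimmer probes of hsa-miR-27a (154 to 234 against 108 to 138) and hsa-miR-27b (355 to 550 against 282 to 347) did not overlap either. The miR-195 array was dimmer as a whole, with 61.2% of 147 miRNAs below their NT level before scaling. Its percentile used for scaling was 778 units, against 827 on the NT array. The hsa-miR-27b gap, 347 against 355, is narrower in proportion, so these spots overlap after scaling. The gaps of hsa-miR-24 and hsa-miR-27a are wider in proportion. How often spots stay apart over all miRNAs was not counted, and spots of 1 array are not replicates of a condition. The spots of the brighter hsa-miR-23b probe overlapped, from 1312 to 1419 against 1346 to 1398.

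**Figure D1:**
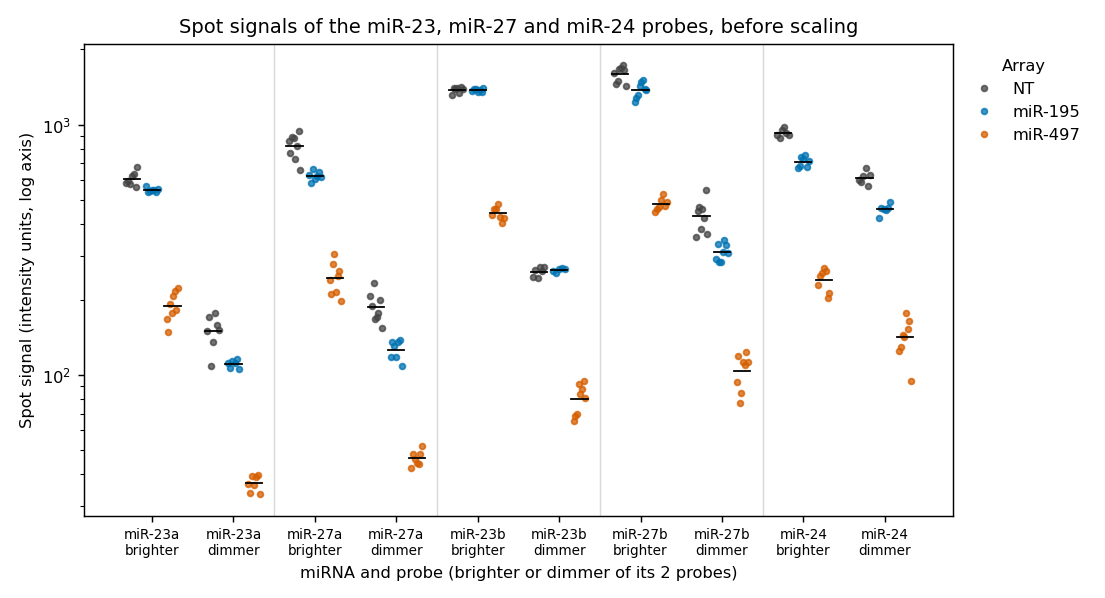
Signal of each used spot before scaling, on a log axis, for the brighter and the dimmer probe of each member, with a black line at the mean of a probe's spots. Points are spots of the NT, miR-195 and miR-497 arrays. The spots of the miR-497 array lie lowest for every probe. Those of hsa-miR-24 and of the dimmer hsa-miR-27a and hsa-miR-27b probes separate on the NT and miR-195 arrays, while those of the other probes overlap. The separation of the hsa-miR-27b probe is not kept after scaling.

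None of the 5 members differed by 2-fold between the miR-195 and NT arrays after scaling. Of all 147 human miRNAs measured on both, without the transfected ones, 5 did, or 3.4%. The scaled difference was -0.34 log2 units for hsa-miR-27a (spot SD 0.15) and -0.31 for hsa-miR-24 (spot SD 0.07), or 79.1% and 80.7% of the NT level. A lower difference was seen in 8.84% of the 147 miRNAs for hsa-miR-27a and in 10.9% for hsa-miR-24. hsa-miR-27b stood at -0.18 (spot SD 0.13) and hsa-miR-23a at -0.11 (spot SD 0.09). hsa-miR-23b was the single member above its NT level, by 0.08 log2 units (spot SD 0.04), a direction that was not kept without scaling. With scaling on the spike-in RNAs, which moved the median of all miRNAs by 0.25, 2 of the 5 members were below their NT level, in place of 4 here. The median over the members was -0.18, compared with -0.01 over all 147, where 51.0% were below their NT level. The SD over all 147 was 0.37 log2 units, which the 5 members' sizes did not exceed.

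Between the miR-497 and NT arrays none of the 5 members differed by 2-fold after scaling either, against 3.39% of the 118 miRNAs measured on both. hsa-miR-24 was the lowest member, at -0.37 log2 units (spot SD 0.14), or 77.5% of the NT level, and 9.32% of the 118 miRNAs had a lower difference. hsa-miR-27a and hsa-miR-27b both stood at -0.14, with spot SDs of 0.23 and 0.12. hsa-miR-23a stood at -0.10 (spot SD 0.19). hsa-miR-23b differed by 0.00022 (spot SD 0.086), which is no measurable difference on these arrays. The members' median was -0.14, compared with 0.03 over all 118, of which 44.9% were below their NT level. Both comparisons use the same NT array, so their values stand side by side and are not independent.

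**Figure D2:**
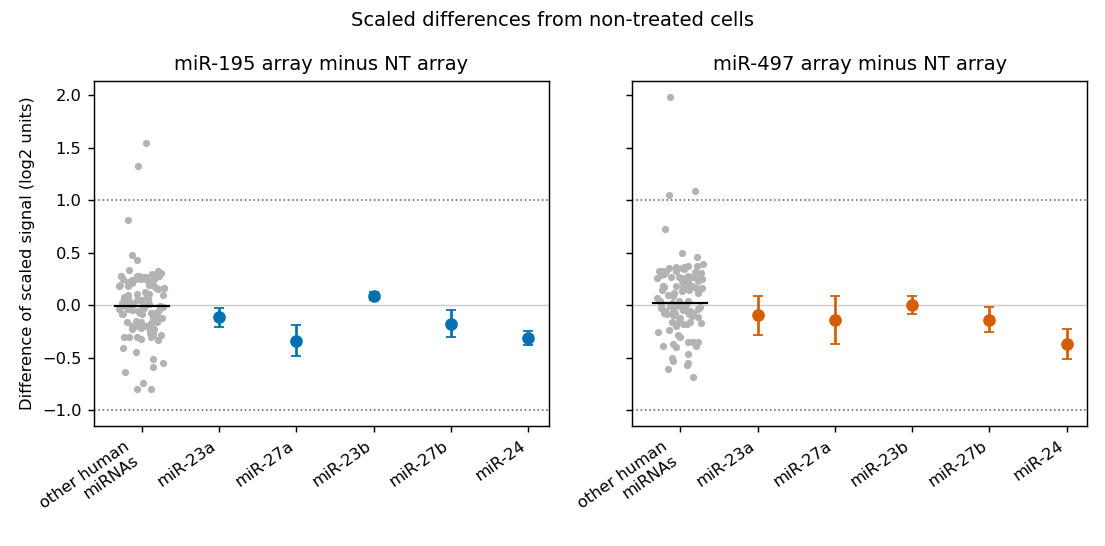
Scaled log2 difference from the NT array for the miR-195 array (left) and the miR-497 array (right). Grey points are the other human miRNAs measured on all 3 arrays, without the transfected ones, with a black line at the median of all. Coloured points are the members with their spot SD, and dotted lines mark 2-fold. The members lie between -0.37 and 0.08, inside the 2-fold lines, with hsa-miR-23b uppermost in both panels.

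The comparison of the transfected arrays with each other does not use the NT array. The difference of the miR-497 from the miR-195 array was 0.19 log2 units for hsa-miR-27a (spot SD 0.19), 0.04 for hsa-miR-27b (spot SD 0.12) and 0.02 for hsa-miR-23a (spot SD 0.17). It was -0.06 for hsa-miR-24 (spot SD 0.14) and -0.08 for hsa-miR-23b (spot SD 0.08). No member reached 2-fold, against 1.71% of 117 miRNAs, and the median was 0.02 for the members and 0.02 for all.

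Without scaling, the count of members past 2-fold followed the brightness of the array. It was 0 of 5 between the miR-195 and NT arrays, against 3.4% of all, and 5 of 5 between the miR-497 and NT arrays, against 95.8% of all. The unscaled signals on the miR-497 array were 3.14-fold lower than on the NT array for hsa-miR-23b, 3.36-fold for hsa-miR-23a, 3.46-fold for hsa-miR-27b, 3.47-fold for hsa-miR-27a and 4.05-fold for hsa-miR-24. Between the miR-497 and miR-195 arrays it was 5 of 5, against 97.4% of all. The fall of all 5 members on the miR-497 array was therefore shared with nearly every miRNA there. Lower RNA input and less of each miRNA in Ago2 cannot be told apart.

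A factor common to a whole array cancels in the difference between paralogues on that array. Quantile normalization, which is no such factor, turned the sign of the miR-27 change below, to 0.029 with miR-195 and 0.23 with miR-497. Another background correction (normexp) turned the changes with miR-497, to 0.14 for miR-27 and 0.088 for miR-23. The mean of the log2 probe signals and the median over spots turned that of miR-27 with miR-497, to 0.0096 and 0.0061. hsa-miR-23a read 1.11 log2 units below hsa-miR-23b on the NT array (log2 difference -1.11, spot SD 0.09), and the difference was -1.31 (spot SD 0.03) with miR-195 and -1.21 (spot SD 0.18) with miR-497. The probes of different miRNAs can bind with unequal strength, so these values do not rank the paralogues by number of molecules, and only their change between arrays is compared. The miR-23a to miR-23b difference changed by -0.20 log2 units (spot SD 0.10) from the NT to the miR-195 array and by -0.10 (spot SD 0.20) from the NT to the miR-497 array.

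The difference of hsa-miR-27a from hsa-miR-27b was -1.01 (spot SD 0.17) on the NT array, -1.17 (spot SD 0.10) with miR-195 and -1.01 (spot SD 0.20) with miR-497. It changed by -0.16 (spot SD 0.20) with miR-195 and by -0.01 (spot SD 0.26) with miR-497, both within the spot SD. Of the 4 changes from the NT array in both paralogue pairs, that of miR-23 with miR-195 alone was larger than its spot SD, which is a spread of single spots.

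Other pairs of human names that differ by 1 letter gave the usual size of such a change. Over 41 other pairs its median size was 0.20 log2 units with miR-195 and 0.13 with miR-497, and the largest was 0.65 and 0.61. The change was larger than that of the miR-23 pair in 21 of the 41 pairs with miR-195 and in 24 with miR-497, and larger than that of the miR-27 pair in 21 and 40. Over the 3 arrays the miR-23 difference spanned 0.198 log2 units and the miR-27 difference 0.162, less than in 30 and 31 of the 41 pairs. The pairs with the largest changes were hsa-miR-200a with hsa-miR-200c (0.65 and 0.52), hsa-miR-200b with hsa-miR-200c (0.36 and 0.61) and hsa-let-7d with hsa-let-7i (-0.59 and -0.52), with miR-195 and miR-497 respectively. The balance of the a and b signals thus moved by a middling amount with miR-195, and over the 3 arrays by less than in most such pairs. The pairs were matched by name and not by sequence, and cross-hybridisation between the copies was not tested. Many of the 41 pairs share a name, as among the let-7 miRNAs, so they are not independent.

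The miRNAs of each cluster were compared in the same way. The hsa-miR-24 signal could be from either cluster and was used in both, so its pairs are not those of one precursor alone. In the chromosome 9 cluster, hsa-miR-23b stood 0.09 log2 units above hsa-miR-24 on the NT array, 0.48 above it with miR-195 and 0.46 above it with miR-497. This was a change of 0.39 (spot SD 0.08) with miR-195 and 0.37 (spot SD 0.17) with miR-497, the widest among the 6 pairs within a cluster. The same change was not computed for pairs of unrelated miRNAs. The scaled difference of single miRNAs from NT had an SD of 0.37 over all 147 with miR-195 and 0.41 over all 118 with miR-497. A change between a pair takes in the spread of both miRNAs, so this SD is no yardstick for it. The pair is also singled out because its change was the widest. The change in hsa-miR-23b against hsa-miR-27b was 0.26 (spot SD 0.13) and 0.14 (spot SD 0.15), and in hsa-miR-27b against hsa-miR-24 it was 0.13 (spot SD 0.14) and 0.23 (spot SD 0.19).

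In the chromosome 19 cluster, hsa-miR-23a against hsa-miR-24 changed by 0.20 (spot SD 0.11) with miR-195 and by 0.27 (spot SD 0.23) with miR-497. hsa-miR-23a against hsa-miR-27a changed by 0.22 (spot SD 0.17) and 0.05 (spot SD 0.29). hsa-miR-27a against hsa-miR-24 changed by -0.03 (spot SD 0.16) and 0.22 (spot SD 0.27), the single pair without the same direction on both arrays. hsa-miR-24 had the lowest scaled difference from NT among the members with miR-497, and the lowest but for hsa-miR-27a with miR-195. The direction of its 8 changes follows from these ranks, so they are not separate observations, and the NT array enters them all.

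**Figure D3:**
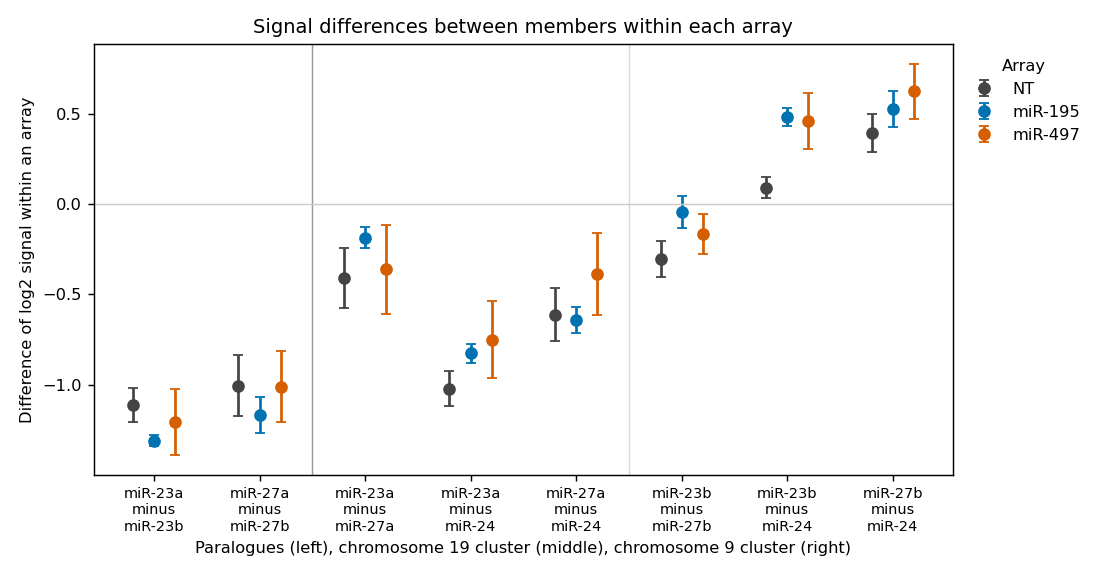
Difference of log2 signal between 2 members within each array, with bars for the spot SD, for the paralogues (left), the chromosome 19 cluster (middle) and the chromosome 9 cluster (right). The same hsa-miR-24 signal enters both clusters. The difference of hsa-miR-23b from hsa-miR-24 lies at 0.09 on the NT array and at 0.48 and 0.46 on the miR-195 and miR-497 arrays, while both paralogue pairs stay between -1.31 and -1.01.

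The 2 probes of a member did not give the same size of difference. With miR-195, the brighter and dimmer probes of hsa-miR-23a gave -0.06 and -0.35 log2 units, those of hsa-miR-27b -0.12 and -0.39, and those of hsa-miR-24 -0.29 and -0.33. The dimmer probe was the lower one in 4 of 5 members with miR-195 and in 5 of 5 with miR-497. Among all miRNAs with more than 1 probe well above background on both arrays it was the lower one in 74.2% of 97 and in 86.4% of 59. Both probes of 4 members, all but hsa-miR-23b, lay below their NT level on both transfected arrays after scaling. The brighter probes of hsa-miR-23a and hsa-miR-27b were within their spot SD of NT on both, and that of hsa-miR-27a with miR-497. The share of all miRNAs with both probes below NT was not counted.

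The other strands of these hairpins, marked by an asterisk on the array, are usually degraded when the guide strand enters Ago2. Probes for hsa-miR-23a*, hsa-miR-27a*, hsa-miR-24-2*, hsa-miR-23b* and hsa-miR-27b* gave no signal well above background, with 0 of 4 probes each on all 3 arrays. hsa-miR-24-1*, from the chromosome 9 hairpin, was measured, and its sequence is shown beside that of the chromosome 19 copy because the copies differ at 6 of 22 bases at the 3′ end, unlike the shared miR-24.

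hsa-miR-24-1*: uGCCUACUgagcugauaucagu
hsa-miR-24-2*: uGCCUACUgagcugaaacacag

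hsa-miR-24-1* read 113 units (spot SD 4.58) on the NT array, 108 (4.57) with miR-195 and 37.1 (5.75) with miR-497, where 1 of its 2 probes was well above background. Its scaled difference from NT was 0.02 (spot SD 0.08) with miR-195 and 0.04 (spot SD 0.23) with miR-497. The difference of hsa-miR-24 from its other strand fell from 3.77 log2 units on the NT array to 3.44 and 3.36 on the miR-195 and miR-497 arrays, changes of -0.33 (spot SD 0.11) and -0.41 (spot SD 0.27). The strand difference narrowed with the lower scaled hsa-miR-24 value, while that of hsa-miR-24-1* stayed within its spot SD of NT. Since hsa-miR-24 can be from either hairpin, its strand difference is not that of one hairpin alone.

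The deposited table gave another value for the same strand. It listed hsa-miR-24-1* at 5.88 log2 units on the NT array, 5.80 with miR-195 and 7.76 with miR-497, a difference of 1.88 from NT, or 3.69-fold higher. The table is built on the scanner software's total per miRNA, and for the 5 members this total equalled the sum of their own significant probes to within 0.003 units on all 3 arrays. For hsa-miR-24-1* on the miR-497 array the total was 217 units, while its own significant probe summed to 14.7. The excess of 201.826 units and the total of hsa-miR-24 on that array, 201.827, differed by 0.0008 units. The spots of hsa-miR-24-1* itself gave no such rise.

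**Figure D4:**
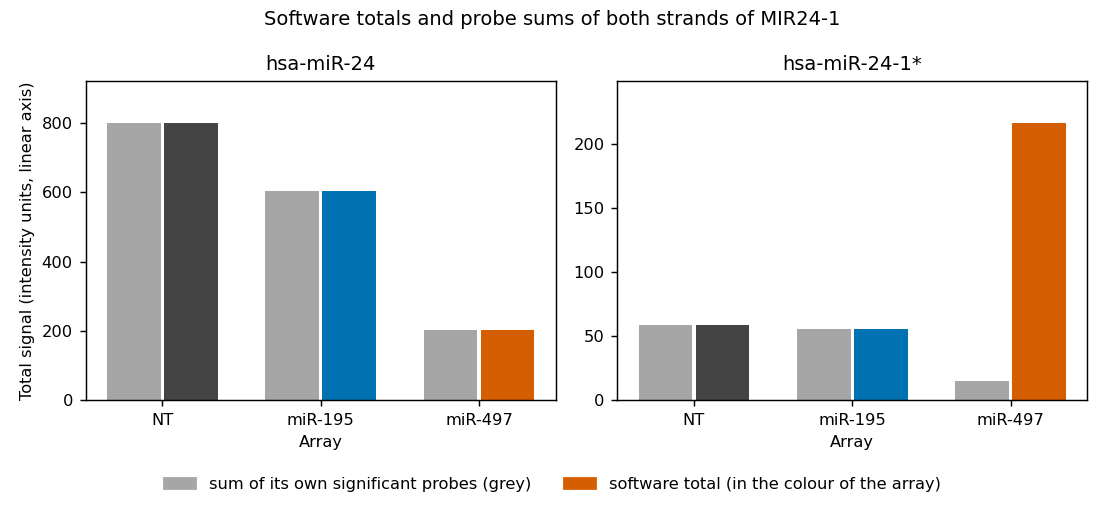
Software total (coloured by array) and sum of the own significant probes (grey) of hsa-miR-24 (left) and hsa-miR-24-1* (right), in intensity units on linear axes of unequal range. The bars match for hsa-miR-24 on all arrays and for hsa-miR-24-1* on the NT and miR-195 arrays, while on the miR-497 array the total of hsa-miR-24-1* was 217 against 14.7 units.

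No other human name on the array was found with a member's seed. In RefSeq the seed of miR-23 is shared by hsa-miR-23c and that of miR-27 by hsa-miR-9985, neither of which is an array name, and no other human miRNA shares the seed of miR-24. hsa-miR-128, a miRNA abundant in neurons, is shown because its start overlaps the miR-27 seed at an offset of 1 base.

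hsa-miR-128: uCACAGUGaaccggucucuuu

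hsa-miR-128 read 172 units (spot SD 7.19) on the NT array, 161 (9.27) with miR-195 and 52.6 (5.31) with miR-497. Its scaled difference from NT was -0.01 (spot SD 0.10) and -0.06 (spot SD 0.16). It lay above both miR-27 members in each comparison with NT, within 1 spot SD of them on the miR-497 array.

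The miRNAs closest to the clusters were those with the smallest distance, over both scaled differences from NT, to the members' median pair of -0.18 and -0.14. Among 112 others measured on all arrays they were hsa-miR-331-3p at a distance of 0.060 log2 units, hsa-miR-30b at 0.064, hsa-miR-18a at 0.069, hsa-miR-500* at 0.085 and hsa-miR-92a at 0.086. hsa-miR-23b, the member farthest from that pair, lay at 0.295, and 41 of the 112 others, or 36.6%, were nearer than it. The median distance of the others was 0.418. The median pair was that of hsa-miR-27b.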

How the data were processed

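Ago2-bound RNA from Hep G2 cells carried a Cy3 label and was read on Agilent human miRNA arrays, 3 of them on 1 slide and in 1 scan. The deposited scanner files hold spot intensity on a linear scale, background-subtracted by Agilent Feature Extraction 10.7.1.1 per the file headers, with no scaling between arrays. The outlier and above-background flags of each spot are deposited in the same files. The log2 values in the authors' table are described in its header as GeneSpring output. No spot was saturated, and 962 to 1049 of 15024 non-control spots per array had an outlier flag and were left out.

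Spots were averaged per probe and probes summed per miRNA. Sums were divided by the array's 75th percentile over the 183 probes well above background on all arrays, then converted to log2. A miRNA counted as well above background where at least 1 probe had this flag on over 50% of the spots kept. Differences were described against a fixed size of 2-fold, with no test, since each group held 1 array, and precision is limited by the number of arrays. Groups came from the sample labels. The members and lists were chosen with earlier results of these data known. Named miRNAs were the members, the other strands of their hairpins, miRNAs sharing a seed and hsa-miR-128, the transfected miRNAs, cell type markers, the 5 nearest profiles and the 3 other letter pairs with the largest change.

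The summary was tested on simulated spots of the miR-195 comparison with 167 miRNAs: of 6 changed by 4-fold, 5 could be measured and all 5 passed 2-fold, with 0 false calls among 155 unchanged. The rest of the 12 changed miRNAs were changed by 2-fold, the threshold itself, and how many of these passed was not counted. The largest difference of an unchanged miRNA was 0.54 log2 units. The spots were simulated from the NT array with its own spot noise, so variation between arrays or immunoprecipitations was not covered. Alternatives covered scaling, background (normexp, offset 50, limma 3.58.1 in R 4.3.3), probe summary, spots, detection, dim miRNAs and the deposited table. Other steps used Python 3.11.15 with numpy 2.4.6 and pandas 2.3.3.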

Additional observations from a re-analysis of the deposited data

Results flagged for a closer look

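hsa-miR-24-1*, the other strand of the chromosome 9 copy of miR-24, stood out in the deposited table, which the comparisons did not use: its value on the miR-497 array was 7.76 log2 units, above 5.88 on the NT array. Its own spots read 37.1 units there, below the 113 units on the NT array. The software total behind the table was larger than its own significant probe by the total of hsa-miR-24, to within 0.0008 units.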

How the results depend on the processing

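The 10 results were recomputed under 14 alternatives. Of the 140 values, 115 moved by less than the spread between spots or kept their count, and 25 moved by more. Part of the 115 was fixed in advance, since a factor common to an array cancels in the changes of the paralogue pairs. The members' median difference between miR-195 and NT, -0.18, was -0.71 when every non-control probe entered the 75th percentile, -0.45 with quantile normalization, 0.073, with the sign turned, by spike-in scaling, -0.27 with the software total, -0.057 when detection required each spot of a probe, and -0.28 in the deposited table. Between miR-497 and NT, -0.14, it was -1.52 with the percentile over all probes, -1.79 without scaling, -0.29 with quantile normalization, -1.44 with spike-in scaling, -0.44 with the software total and -1.76 in the deposited table. Between miR-497 and miR-195, 0.02, it was -0.83 with the percentile over all probes, -1.55 without scaling, -1.54 with spike-in scaling, -0.19 with the software total and -1.50 in the deposited table. The count of members past 2-fold went from 0 to 5 between miR-497 and NT with the percentile over all probes, without scaling, by spike-in scaling and from the deposited table, and between miR-497 and miR-195 with the last 3 of these. These settings moved the median of all miRNAs between miR-497 and NT by -1.38, -1.65, -1.31 and -1.46 log2 units in that order, so the members moved with the other miRNAs. With normexp background they did not. The median of all miRNAs between miR-497 and NT then moved by 0.43 log2 units. That of the members was -0.01 in place of -0.14, a move within the spot SD, so the gap widened because the other miRNAs rose. The members' median minus that of all was then -0.47 between miR-497 and NT, against -0.17 in the main setting. It was -0.44 against -0.005 between miR-497 and miR-195, and -0.21 against -0.17 between miR-195 and NT.

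The miR-23a to miR-23b change with miR-195 was negative under all 14 alternatives, from -0.30 with the mean of the log2 probe signals to -0.14. Scaling by another factor, stricter detection and leaving out dim miRNAs cannot change a paralogue value, so these alternatives are no check of its sign. For this change they gave -0.198, as did the software total and the deposited table. With miR-497 it was negative in 13 of 14, from -0.19 to 0.088. The miR-27 change was negative in 13 of 14 with miR-195, from -0.18 to 0.029, and in 10 of 14 with miR-497, from -0.060 to 0.23. Beyond the alternatives named, the cause was not tested. No paired analysis was possible because each group held 1 array and the labels give no replicate numbers. No replicate could be left out for the same reason. The dim miR-497 array limits hsa-miR-24-1* and hsa-miR-128, each of which had 1 of 2 probes above background there.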
